A study of Mus musculus with 14 samples.

Results

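The genes described here are 10 components of Toll-like receptor recognition, namely the receptors Tlr1, Tlr2, Tlr3, Tlr4, Tlr6, Tlr7 and Tlr9, the receptor homologue Cd180, the adaptor Myd88 and the trafficking chaperone Unc93b1. Every non-control probe that the array files list under one of these 10 gene names was taken, which gave 13 probes of the 55681 on the array, and the 10 names are among 34821 gene names. The cells were peritoneal B-1a cells, a B lymphocyte population of the body cavities with innate-like functions. They came from mice labelled Bmi1 KO, a knockout of the Polycomb group gene Bmi1, and from wild-type (WT) mice. RNA of each sample was labelled with Cy3 and hybridised to a one-colour Agilent array. There were 7 Bmi1 KO arrays (3 in set 1 and 4 in set 2 of the experiments) and 7 WT arrays (3 in set 1 and 4 in set 2), all called KO and WT from here on. The set was read from the numbering style of the sample titles. The labels do not give strain, age, sex, the deleted part of Bmi1, any treatment, or whether each sample is a different animal. The p-values therefore reflect sample-to-sample spread that could be partly technical.

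Toll-like receptors recognise conserved molecules of microbes. Those of the cell surface bind lipids and lipoproteins, and those of the endosome bind nucleic acids. Apart from Tlr3, which uses another adaptor, they signal through Myd88 to NF-kB and interferon regulatory factors, and the endosomal receptors reach their compartment only with the help of Unc93b1. B-1a cells are known for secreting natural antibodies and for rapid antibody responses to ligands of these receptors.

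The probes are 60 bases long, and the files place them on mouse build mm9. The last 30 bases are shown for the genes with several probes, since these probes gave unlike readings, and for Cd180, Myd88 and Unc93b1, which had the largest differences from the median of all probes. Sequences are as listed in the array files, 5′ to 3′, and capitals mark AATAAA, the common polyadenylation signal, searched for on the probe strand alone.
Tlr7 probe 1, chrX:163742863-163742922, minus strand: gttcaatgaAATAAAagcccagagaacttc
Tlr7 probe 2, chrX:163747214-163747273, minus strand: gtttggggcagcaagagacatggctcagtg
Tlr7 probe 3, chrX:163743146-163743205, minus strand: gttgtcatggctcagattggtgggaaatca
Tlr4 probe 1, chr4:66590077-66590136, plus strand: acgaggcacgatattaatgctgtggattga
Tlr4 probe 2, chr4:66503470-66503529, plus strand: taacatccttttccttcatcattctcattt
Cd180, chr13:103496269-103496328, plus strand: ggtacaaagaaaacatgcaaaaactcgagg
Myd88, chr9:119245322-119245381, minus strand: tctaccatagaggcaatgtcatggtccctc
Unc93b1, chr19:3949081-3949140, plus strand: gagataagggtcactctccgaaacccctat

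AATAAA was found in 3 of the 13 probes (Tlr2, Tlr3 and Tlr7 probe 1), against 10.1% of all 60-base probes of the array. Tlr7 probes 1 and 3 start 283 bases apart and both carry the RefSeq accession of Tlr7. Tlr7 probe 2 starts 4351 bases from probe 1 and is listed under an Ensembl transcript. Tlr4 probe 1, also listed under an Ensembl transcript, starts 86607 bases from probe 2, which carries the RefSeq accession of Tlr4. The other probes lie at chr5:65316115-65316174 (Tlr1), chr5:65344365-65344424 (Tlr6), chr3:83640344-83640403 (Tlr2), chr8:46481729-46481788 (Tlr3) and chr9:106128979-106129038 (Tlr9). Tlr1 and Tlr6, which form alternative partners of Tlr2, are neighbouring genes in the RefSeq table of GRCm38.p6. No annotation of mm9 was used, so exon and UTR positions are not given.

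Levels are log2 of the processed spot intensity minus the 75th percentile of the same array, so that 0 is the 75th percentile, and they are compared between arrays for 1 probe but never between probes. The share of all probes well above background was 40.6 ± 14.4% on KO arrays and 52.3 ± 7.23% on WT arrays (SD, n = 7 each; exact permutation of genotype within sets, two-sided, p = 0.0457). It was under 40% on 4 KO arrays, called dim here, which are set 1 replicate 4 and set 2 replicates 1, 2 and 3 (36.8%, 29.9%, 20.6% and 31.9%), and it was at least 43.5% on every WT array. Per the file headers dim spots carry surrogate values. On KO set 2 replicate 2, the dimmest array, 6 of the 7 member probes below background lay between -1.78 and -1.52, and the seventh was Tlr2 at -0.12. The median SD of a probe over the arrays of a genotype was 1.89 in KO and 1.10 in WT. One Bmi1 probe ranged from -1.55 to 3.78 on KO arrays and from -3.12 to 2.09 on WT arrays (exact permutation p = 0.28), and the other ranged from -3.15 to 2.62 on KO arrays and from -5.31 to -2.20 on WT arrays (exact permutation p = 0.00286). The first Bmi1 probe was above background on 6 KO and 6 WT arrays. The other was above background on 5 KO and 3 WT arrays, so most of its WT values were below background. The labels do not say whether either probe lies in the deleted part, so the probes do not check the genotype labels. The B cell genes Cd79a, Cd79b, Ms4a1, Pax5 and Cd22 were well above background on every array. Of 6 genes listed for B-1a cells, 1 to 6 were above background on KO arrays and 5 to 6 on WT arrays, with 3 KO and 6 WT arrays for Cd5. Their KO minus WT differences ranged from -4.61 to 0.20 with a median of -0.82, and 0 of the 6 lay above the median of all tested probes. Bhlhe41 and Plscr1 differed by -4.61 and -3.63 (limma adjusted p = 0.182 and 0.175). Each had 6 KO arrays below every WT array and was above background on 4 KO and 7 WT arrays.

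Macrophages, the other common cell of the peritoneum that uses Toll-like receptors, were followed through 14 marker genes. Between 4 and 10 of these were above background on KO arrays and between 6 and 13 on WT arrays. Their summed level, as log2 of the sum, ranged from 3.40 to 11.1 on KO arrays and from 3.85 to 7.71 on WT arrays. Of the 14, only 2, Adgre1 and Csf1r, were above background on all 14 arrays, and 0 were below background on all of them. Only 8 of the 14 were bright enough for the test. Cd163 was above background on 1 KO and 0 WT arrays, Mertk on 0 KO and 2 WT arrays and C1qc on 1 KO and 2 WT arrays. Siglech, Ly6g and Cd4, listed for dendritic cells, neutrophils and T cells, were also above background on all 14 arrays. The part of macrophage RNA in the values given here was not tested. In such bulk samples, fewer cells of a type and less RNA per cell cannot be told apart.

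None of the 8 genes that entered the test differed between KO and WT cells after correction over the whole array. Tlr3 and Tlr4 were too dim to enter it. Of the 13 probes, 9 (for 8 genes) had signal well above background on 4 or more of the 7 KO or the 7 WT arrays and entered the test, as did 53.3% of all probes, and 0 of these 9 had an adjusted p under 0.05 (limma with set as a covariate, Benjamini-Hochberg over 29687 probes). Over the array 0.0303% of tested probes passed, 1 probe (0.00337%) as higher and 8 probes (0.0269%) as lower in KO, so almost no gene passed. At an unadjusted p under 0.05, 2 of the 9 probes differed, Myd88 and Unc93b1, both with the higher mean in KO, against 13.5% of all tested probes in either direction and 8.17% with the higher and 5.37% with the lower mean in KO. The median KO minus WT difference of the 9 probes was 0.23, beside a median of 0.32 over all tested probes.

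**Figure D1:**
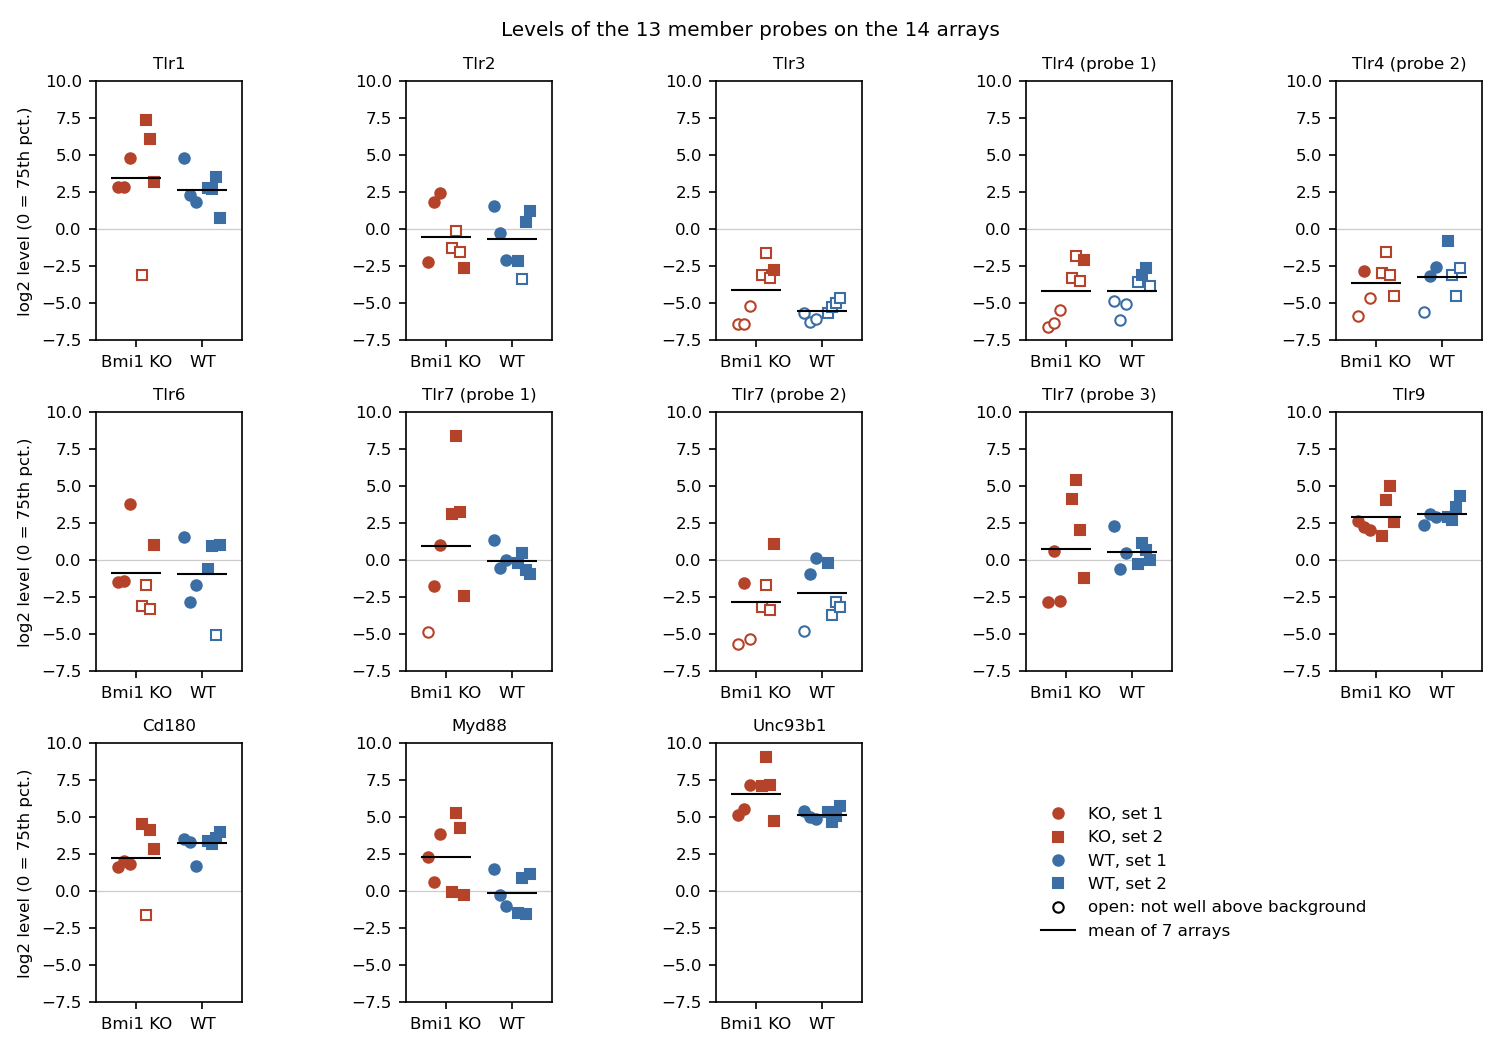
Levels of the 13 probes on each array (log2, 0 is the array's 75th percentile), with the 7 Bmi1 KO arrays left of the 7 WT arrays; circles are set 1, squares set 2, open symbols were not well above background, and lines are means of 7 arrays. The SD was larger in KO than in WT for every probe but Tlr4 probe 2. The median SD over all tested probes was also larger in KO (1.89 against 1.10). The genotypes overlap in every panel.

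Among the surface receptors, Tlr2 recognises bacterial lipoproteins as a pair with Tlr1 or Tlr6. Tlr1 levels were -3.11, 3.20 and 7.39 on KO arrays (lowest, median and highest of 7) and 0.79, 2.72 and 4.80 on WT arrays. The KO range enclosed the WT range, with 3 KO arrays above and 1 below every WT array. The 3 above, set 1 replicate 4 and set 2 replicates 2 and 3, are dim arrays, and the 1 below, set 2 replicate 1, is a dim array on which Tlr1 was not well above background. Tlr1 averaged 3.45 ± 3.37 in KO and 2.70 ± 1.26 in WT cells (SD, n = 7 each), a difference of 0.75 with a 95% interval from -1.87 to 3.38 (limma, adjusted p = 0.784).

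Tlr2 levels were -2.63, -1.23 and 2.45 on KO arrays and -3.33, -0.26 and 1.61 on WT arrays. The ranges overlapped almost fully, and the probe was above background on 4 KO and 6 WT arrays. The KO median, on the dim set 2 replicate 1, was a value below background. So were the levels of -0.12 and -1.55 on the dim KO set 2 replicates 2 and 3, and the lowest WT level. The difference was 0.13 (95% interval from -1.85 to 2.11, limma adjusted p = 0.955), with means of -0.50 ± 1.98 in KO and -0.63 ± 1.90 in WT cells. Tlr2 has 10 spots on each array, with a median SD within an array of 0.0714 where the probe was above background and of 0.888 where it was not.

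Tlr6, the other partner of Tlr2, had levels of -3.31, -1.45 and 3.81 on KO arrays and of -5.05, -0.61 and 1.58 on WT arrays. It was above background on 4 KO and 6 WT arrays, and 1 KO array, the dim set 1 replicate 4, exceeded every WT array. The lowest level of each genotype was below background. The difference was 0.07 (95% interval from -2.43 to 2.58, limma adjusted p = 0.979). The same array, KO set 1 replicate 4, held the highest KO levels of Tlr2 and Tlr6, at 2.45 and 3.81, while its Tlr1 level of 4.80 was the third highest of the KO arrays.

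Tlr4, the receptor for bacterial lipopolysaccharide, was near or below background in these cells. Probe 2, which carries its RefSeq accession, was above background on 1 KO and 3 WT arrays, and ranged from -5.85 to -1.52 on KO arrays and from -5.59 to -0.77 on WT arrays. Probe 1 was above background on 1 KO and 2 WT arrays, and ranged from -6.63 to -1.78 on KO arrays and from -6.11 to -2.59 on WT arrays. Both were too dim for the fit over all probes. By exact permutation the differences were -0.44 for probe 2 (p = 0.561) and 0.00 for probe 1 (p = 0.99), mostly between values below background.

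Cd180 is a homologue of Tlr4 without its signalling domain that acts on B cells together with Ly86. Its levels were -1.61, 2.08 and 4.56 on KO arrays and 1.74, 3.39 and 4.00 on WT arrays. On either side of the WT range lay 2 KO arrays. Those above were the dim set 2 replicates 1 and 3, and the lowest was the dim set 2 replicate 2, where the probe was not well above background. Cd180 averaged 2.23 ± 2.03 in KO and 3.26 ± 0.72 in WT cells, a difference of -1.04 (95% interval from -2.75 to 0.68, limma adjusted p = 0.528). This was the largest negative difference of the 9 tested probes, and the differences within the sets were -1.01 in set 1 and -1.06 in set 2. Without KO set 2 replicate 2 the set 2 difference was 0.31 and the difference over both sets was -0.30. Ly86, named here as the partner of Cd180 after its values were seen, was above background on all arrays and averaged 4.72 ± 2.71 in KO and 3.66 ± 0.99 in WT cells (difference 1.06, limma adjusted p = 0.615).

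Of the endosomal receptors, Tlr7 binds single-stranded RNA and was read by 3 probes. Tlr7 probe 3 was above background on all 14 arrays, with levels of -2.84, 0.63 and 5.46 on KO arrays and -0.55, 0.53 and 2.31 on WT arrays. Tlr7 probe 1 was above background on 6 KO and 7 WT arrays, with levels of -4.85, 1.07 and 8.42 on KO arrays and -0.92, -0.17 and 1.40 on WT arrays. On each probe the KO arrays fell on both sides of a narrow WT range. For probe 1, 3 KO arrays lay above and 3 below every WT array, and for probe 3, 2 lay above and 3 below. Both probes followed each other over the 14 arrays (Pearson's r = 0.83 and Spearman's rho = 0.72, as a description, since the arrays share their brightness). Probe 2 was above background on 2 KO and 3 WT arrays, ranged from -5.64 to 1.14 on KO arrays and from -4.75 to 0.19 on WT arrays, and differed by -0.61 (exact permutation p = 0.607).

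The highest KO values of Tlr7 probes 1 and 3 were on dim arrays of set 2. There KO replicates 1, 2 and 3 had probe 1 levels of 3.13, 8.42 and 3.26, and KO replicate 4, which was not dim, had -2.40. In set 1 the KO levels of probe 1 were -4.85, -1.71 and 1.07, the last on the dim replicate 4. On probe 3 the KO levels of set 1 were -2.84, 0.63 and -2.72, so that the dim replicate 4 lay below every WT array. On probe 2 the highest KO level, 1.14, was on set 2 replicate 4, which was not dim. The KO minus WT difference of probe 1 was -2.12 in set 1 and 3.40 in set 2, and that of probe 3 was -2.41 in set 1 and 2.21 in set 2. The difference between the sets, 5.52 for probe 1 and 4.61 for probe 3, did not pass in the limma interaction test (unadjusted p = 0.0533 and 0.0316, adjusted p = 0.877 for each), where 0 of all tested probes passed and 5.36% had an unadjusted p under 0.05. Over both sets the differences were 1.03 for probe 1 (95% interval from -1.98 to 4.04, limma adjusted p = 0.741) and 0.23 for probe 3 (from -2.07 to 2.53, adjusted p = 0.932). Without the 4 dim KO arrays the differences turned to -2.99 for probe 1 and -1.77 for probe 3, and neither passed. Without KO set 2 replicate 2 alone they were -0.13 for probe 1 and -0.45 for probe 3.

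Tlr9, the receptor for unmethylated CpG DNA, had the narrowest KO spread of the 9 tested probes. It was above background on all 14 arrays, with levels of 1.64, 2.58 and 5.01 on KO arrays and 2.39, 2.94 and 4.37 on WT arrays. Only 1 KO array, set 2 replicate 3, exceeded every WT array, and 3 lay below them all. Tlr9 averaged 2.91 ± 1.20 in KO and 3.17 ± 0.65 in WT cells, a difference of -0.26 with the shortest interval among the 9, from -1.52 to 1.01 (limma adjusted p = 0.851).

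Tlr3, the receptor for double-stranded RNA, was above background on 1 KO array (set 2 replicate 4) and on 0 WT arrays. Its levels were -6.41, -3.26 and -1.60 on KO arrays and -6.23, -5.63 and -4.66 on WT arrays, a difference of 1.38 (exact permutation p = 0.0157, not corrected for the number of probes). The 3 KO arrays other than set 2 replicate 4 that exceeded every WT array were the dim arrays of set 2, on which the probe was below background. With arrays scaled on the probes above background on every array the difference was 0.04 (exact permutation p = 0.98), and 0.68 when the 4 dim KO arrays were left out (exact permutation p = 0.22). With quantile normalization it was 0.41 (exact permutation p = 0.02), and leaving out each array in turn gave 1.10 to 1.59 (exact permutation p from 0.0114 to 0.0314). No fold is given, because the KO mean lay under the bound for WT, which is set by the lowest signals counted as above background there.

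Unc93b1, the chaperone that carries Tlr3, Tlr7 and Tlr9 to endosomes, was above background on all 14 arrays. Its levels were 4.74, 7.13 and 9.09 on KO arrays and 4.68, 5.12 and 5.77 on WT arrays. The 4 KO arrays above every WT array were the 4 dim arrays, at 7.20, 7.13, 9.09 and 7.20, while the other KO arrays, at 5.19, 5.60 and 4.74, lay within the WT range. Unc93b1 averaged 6.59 ± 1.51 in KO and 5.20 ± 0.36 in WT cells, a difference of 1.40 (95% interval from 0.0047 to 2.79, limma unadjusted p = 0.0493, adjusted p = 0.369). With arrays scaled on the probes above background on all 14 arrays it was 0.056, with quantile normalization 0.064 and with the deposited values 0.076 (limma adjusted p = 0.929, 0.937 and 0.926). Without the 4 dim KO arrays the difference was -0.05.

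Myd88, the adaptor that joins most Toll-like receptors to the kinases of the NF-kB pathway, had the largest difference of the 9 tested probes. Its levels were -0.26, 2.36 and 5.31 on KO arrays and -1.49, -0.22 and 1.48 on WT arrays. It was above background on all 14 arrays, and 4 KO arrays exceeded every WT array. Of these 4, the dim set 1 replicate 4 and set 2 replicates 2 and 3 had levels of 3.86, 5.31 and 4.26, and set 1 replicate 2, which was not dim, had 2.36. The dim set 2 replicate 1 had a level of -0.07, inside the WT range. Myd88 averaged 2.30 ± 2.25 in KO and -0.08 ± 1.28 in WT cells, a difference of 2.37 (95% interval from 0.37 to 4.38, limma unadjusted p = 0.0230, adjusted p = 0.346). The difference was 2.18 in set 1 and 2.52 in set 2. It was 0.81 without the 4 dim KO arrays. Over the 12 other settings it ranged from 0.81 to 2.94, with limma adjusted p from 0.237 to 0.993. Other filters, no set covariate, the replicate block and 1 probe per gene cannot change the value, which stayed at 2.37. Its sign in those settings was therefore fixed in advance. The probe has 10 spots on each array, whose median SD within an array was 0.0713 (from 0.0461 to 0.166).

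**Figure D2:**
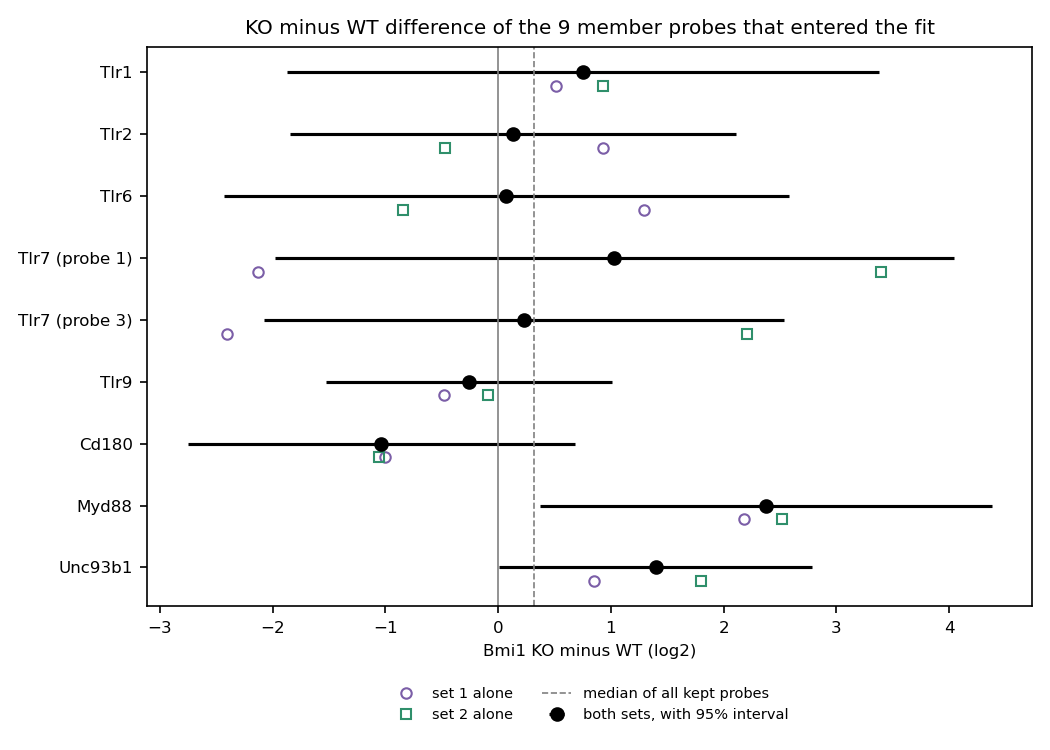
Bmi1 KO minus WT difference (log2) of the 9 tested probes: filled points are both sets with 95% intervals, open circles set 1 and open squares set 2 alone, and the dashed line is the median of all tested probes, 0.32. The intervals of Myd88 and Unc93b1 lie above 0 before correction, and the set values of both Tlr7 probes lie on opposite sides of 0.

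The sets gave differences of opposite sign for 4 of the 9 tested probes (Tlr2, Tlr6 and Tlr7 probes 1 and 3), beside 39.5% of all tested probes. Tlr2 differed by 0.93 in set 1 and -0.47 in set 2, and Tlr6 by 1.29 in set 1 and -0.84 in set 2. Within each set 0 of the 9 probes passed, where 0.0236% of all tested probes passed in set 1 and 0.0135% in set 2. All arrays of set 1 shared a slide, and those of set 2 were spread over 2 slides, of which slide 2 held 4 KO and 2 WT arrays. Within slide 2 the differences of means were 3.80 for Myd88, 1.79 for Unc93b1, -1.01 for Cd180, 3.50 for Tlr7 probe 1, 2.40 for Tlr7 probe 3, 0.22 for Tlr1, 1.09 for Tlr6, 0.05 for Tlr9 and -0.58 for Tlr2, with no test on so few arrays. With slide as a fixed block the Myd88 difference was 2.94 (limma adjusted p = 0.441) and that of Unc93b1 was 1.29 (adjusted p = 0.538).

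The number of probes detected varied with the array. KO arrays showed 8.43 ± 2.37 of the 13 probes above background (from 6 to 12) and WT arrays 9.86 ± 1.07 (from 9 to 11), a difference of -1.43 (SD, n = 7 each; exact permutation p = 0.229). The 4 dim KO arrays showed 6 to 9 and the other KO arrays 8 to 12. The highest count, 12 of 13, was on KO set 2 replicate 4, the array on which Tlr3 and Tlr4 probe 1 were also above background. Without that array the difference was -2.16 (exact permutation p = 0.0186), and 0.50 once the 4 dim KO arrays were left out (p = 0.94). Tlr2 and Tlr6 were above background on 1 of the 4 dim and on 3 of the 3 other KO arrays, while Tlr7 probe 3, Tlr9, Myd88 and Unc93b1 were above background on all 14 arrays, as were 12.7% of all probes.

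**Figure D3:**
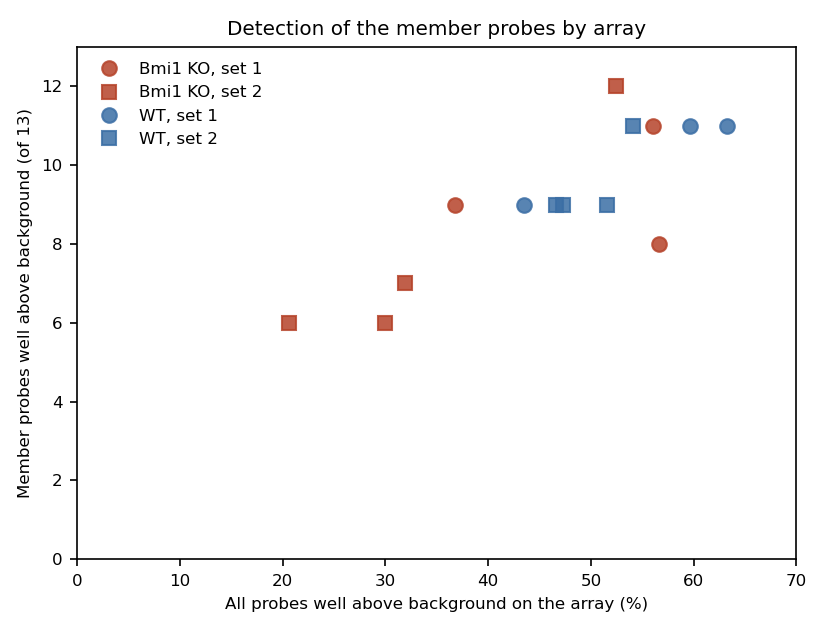
Number of the 13 probes well above background (vertical axis) against the share of all probes well above background in percent (horizontal axis), 1 point per array, in Bmi1 KO and WT by set. The KO array with 20.6% of all probes above background showed 6 of 13, and the KO array with 52.4% showed 12 of 13.

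The same arrays carried the extremes of several genes. KO set 2 replicate 2 held the highest KO levels of Tlr1 (7.39), Tlr7 probe 1 (8.42), Tlr7 probe 3 (5.46), Myd88 (5.31) and Unc93b1 (9.09), and the lowest of Cd180 (-1.61). KO set 2 replicate 1, another dim array, went with it for Tlr7 and Unc93b1 but not for Tlr1 (-3.11), Myd88 (-0.07) or Cd180 (4.56). The Tlr1 level of -3.11 and the Cd180 level of -1.61 were not well above background.

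Other genes of the pathway were followed in 7 lists, each gene through its probe with the highest mean. In these lists 0 genes passed in either direction, where 0.0245% of 20413 genes passed, 0.0049% as higher and 0.0196% as lower in KO. The smallest adjusted p in any list was 0.175, for Tab3 (limma). At an unadjusted p under 0.05, 9.18% of all genes had the higher and 4.15% the lower mean in KO, and the median difference over genes was 0.47.

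Of the 5 other Toll-like receptors, 3 were tested, and Tlr5, the flagellin receptor, was below background on all 14 arrays, as were 16.7% of all probes. Tlr8 averaged -2.12 ± 1.48 in KO and -1.03 ± 2.31 in WT cells (difference -1.09, limma adjusted p = 0.58). Tlr11 was above background on 0 KO and 4 WT arrays and differed by 0.29 (adjusted p = 0.838), with KO values all below background. Tlr13 differed by 0.05 (adjusted p = 0.979), so these receptors had small differences next to their spread.

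Of 9 coreceptors and chaperones, 7 were tested, with a median difference of 1.06 and an unadjusted p under 0.05 for 2, both with the higher mean in KO. Cd36, a scavenger receptor that assists Tlr2, was above background on 4 KO and 4 WT arrays and averaged -0.40 ± 1.93 in KO and -3.35 ± 1.63 in WT cells (difference 2.95, limma adjusted p = 0.232). Ly96, the Tlr4 partner that binds lipopolysaccharide, averaged 2.26 ± 3.35 in KO and 4.2 ± 0.68 in WT cells (difference -1.94, adjusted p = 0.411). The chaperone Hsp90b1, which folds Toll-like receptors in the endoplasmic reticulum, differed by 1.43 and Hmgb1 by 1.42 (adjusted p = 0.372 and 0.369). The means of these chaperone and coreceptor genes lay on both sides of WT.

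Endosomal processing was covered by 9 tested genes of 14 listed, with a median difference of 1.38, 4 genes with the higher and 1 with the lower mean in KO at an unadjusted p under 0.05. The adaptor complex subunits Ap3b1 and Ap3d1, which sort endosomal cargo, differed by 2.56 and 2.65 (limma adjusted p = 0.306 and 0.315). The RNase gene Rnaset2a differed by 2.86 (adjusted p = 0.352), and RNA of its near-identical copy Rnaset2b, which has no probe of its own name, may bind the same probe. The protease Lgmn, which cleaves endosomal receptors, was above background on 2 KO and 7 WT arrays and differed by -2.04 (adjusted p = 0.344).

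Among 24 tested adaptors and kinases of 26 listed the median difference was -0.80, and 2 had the higher and 6 the lower mean in KO at an unadjusted p under 0.05. Tab3, a subunit of the Map3k7 kinase complex, averaged -0.41 ± 2.47 in KO and -4.0 ± 2.00 in WT cells, a difference of 3.60. It was above background on 4 KO and 2 WT arrays, so most of its WT values were below background. The kinase Map3k7 itself averaged -0.59 ± 3.30 in KO and 2.29 ± 1.12 in WT cells, a difference of -2.88 (limma adjusted p = 0.355). Mapk8, a stress kinase, differed by -1.87 and Ticam2, a bridging adaptor of Tlr4, by -1.89 (adjusted p = 0.342 and 0.358). The adaptor Myd88 thus had the higher mean in KO while the median of these genes was below 0, and the difference between Myd88 and the list was not tested.

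Of 10 genes for NF-kB subunits and interferon regulatory factors, 9 were tested, with a median of 0.86 and 0 at an unadjusted p under 0.05. Irf3 differed by 1.69, Irf8 by 1.5, Irf1 by 1.26 and Nfkb1 by -1.10 (limma adjusted p from 0.448 to 0.591). All 20 negative regulators were tested, with a median of 0.07 and an unadjusted p under 0.05 for 2, both with the higher mean in KO. Trim30a, an interferon-induced inhibitor of this signalling in mice, averaged -2.28 ± 0.83 in KO and -4.53 ± 0.80 in WT cells, a difference of 2.25 (adjusted p = 0.21). Its 7 KO arrays all lay above its 7 WT arrays, as for 0.121% of all tested probes, but it was above background on only 4 KO arrays and 1 WT array. Tnfaip3 (A20), above background on 5 KO and 2 WT arrays, differed by 2.65, Nfkbie by 1.43 and Tollip by -2.12 (adjusted p = 0.329, 0.382 and 0.393).

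Of 23 response genes, 14 were tested, with a median difference of 0.53, 1 gene with the higher and 2 with the lower mean in KO at an unadjusted p under 0.05. The cytokine genes Il6, Tnf and Il12b, together with Cxcl10 and Ptgs2, were below background on all 14 arrays. Il10, a cytokine that B-1a cells are known to make, was above background on 2 KO and 7 WT arrays and averaged -2.79 ± 2.76 in KO and -0.47 ± 1.09 in WT cells (difference -2.32, limma adjusted p = 0.367). The chemokine receptor Ccr7 differed by 3.16 and Nfkbiz by -2.31 (adjusted p = 0.315 and 0.372).

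**Figure D4:**
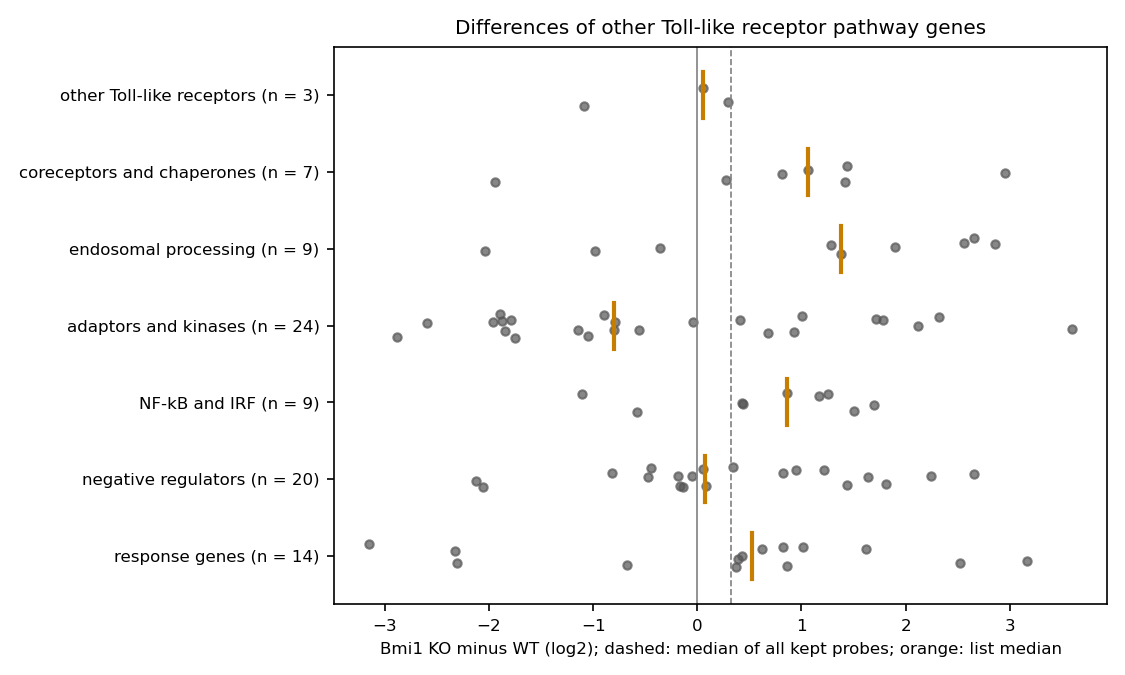
Bmi1 KO minus WT difference (log2, horizontal axis) of each tested gene of the 7 pathway lists, 1 point per gene, with the list median in orange and the median of all tested probes, 0.32, dashed. Each list has genes on both sides of 0, with list medians from -0.80 for adaptors and kinases to 1.38 for endosomal processing. Positions relative to 0 hold for the reported scaling alone. The lists use 1 probe per gene, and the median over all genes read that way, 0.47, is not drawn.

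The genes whose levels were most like each receptor over the 14 arrays were taken among 13834 genes, as a description with no test, since arrays share brightness. For the surface receptors they were Nmt1 (Pearson's r = 0.96) and Slc3a2 (0.94) for Tlr1, Pcgf6 (0.92) and Bphl (0.90) for Tlr2, Prmt2 (0.93) for Tlr6, and Gpr55 (0.96) and H2-DMb2 (0.95) for Cd180. For the endosomal receptors they were Fkbp15 (0.92) and Ncdn (0.91) for Tlr7 and Gm5591 (0.89) and Plekhm3 (0.85) for Tlr9. Unc93b1 was closest to Zc3h12d and Scp2 (0.98 each), and Myd88 to Chd8 (0.94) and Topors (0.93). None of the 10 genes was among the 2 closest genes of these 8, which says little with only 2 named among 13834. Between members, Pearson's r ranged from -0.55 (Tlr1 with Cd180) to 0.76 (Unc93b1 with Myd88). Tlr3 and Tlr4 were too dim to be compared in this way.

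The sign of several receptors changed with the scaling of the arrays. With the 75th percentile taken over the probes above background on all 14 arrays, the median of all probes was -1.02 in place of 0.32. The differences were then -0.59 for Tlr1, -1.21 for Tlr2, -1.27 for Tlr6, -0.31 for Tlr7 probe 1 and -1.11 for Tlr7 probe 3. Relative to the median of all probes, Myd88 differed by 2.05, Unc93b1 by 1.08, Cd180 by -1.36 and Tlr9 by -0.58 in the reported setting. Over the other settings these relative differences ranged from 0.93 to 2.67 for Myd88 and from 0.07 to 1.08 for Unc93b1. They ranged from -2.16 to -0.76 for Cd180 and from -1.01 to -0.43 for Tlr9. Scaling on the probes above background on all 14 arrays, or leaving out the set covariate, cannot change these relative differences. Other filters, the replicate block and 1 probe per gene move only the median subtracted. Keeping a sign in those settings is therefore no separate support.

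**Figure D5:**
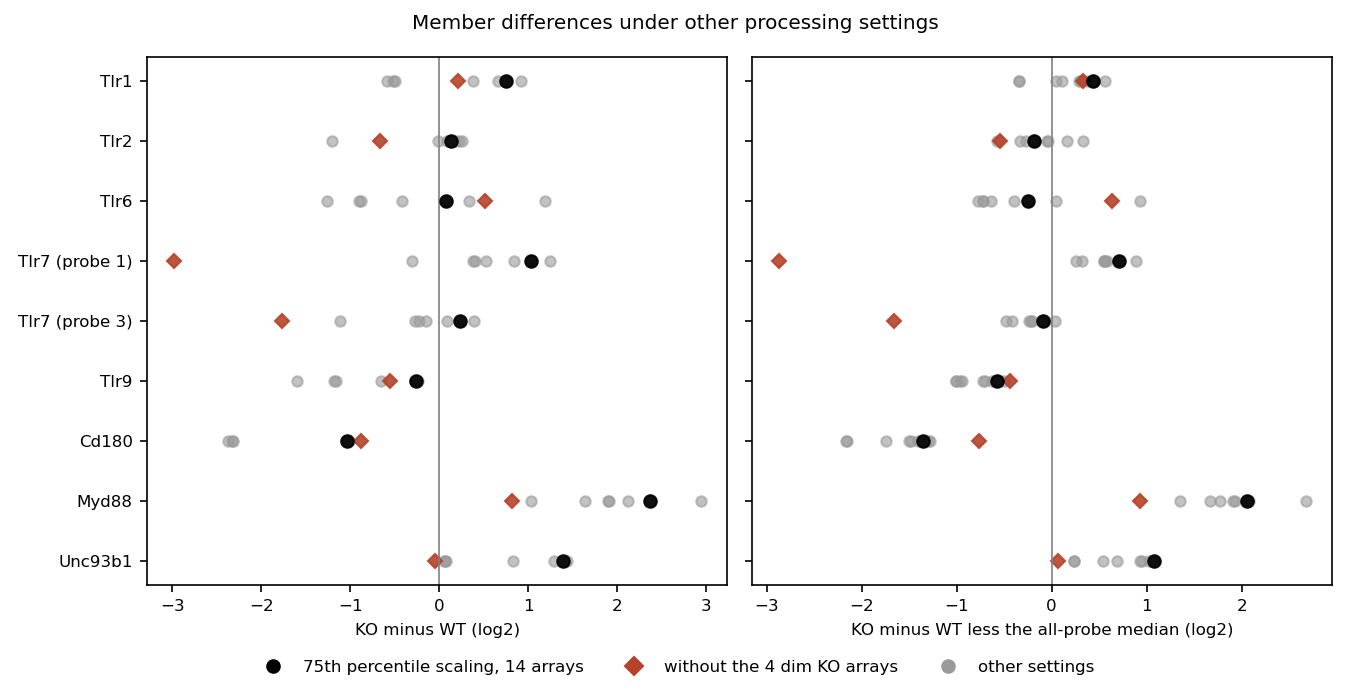
Bmi1 KO minus WT differences (log2, horizontal axis) of the 9 tested probes under the reported setting in black, without the 4 dim KO arrays as red diamonds and under the other settings in grey; the left panel gives the differences and the right panel the differences less the median of all probes. Myd88 stays above 0 in both panels, from 0.81 to 2.94 on the left, Cd180 stays below 0, and Tlr7 probe 1 moves to -2.99 without the dim arrays. Settings that cannot change a value fall on its black point.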

How the data were processed

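Per the labels, total RNA of peritoneal B-1a cells was purified on small-scale columns and labelled with Cy3 by an undisclosed company protocol. Agilent Feature Extraction is named by the submitters' processing notes. Per the file headers its version was 10.7.3.1, it gave a processed intensity per spot with surrogates for dim spots, and probe positions are those of mm9. Per the file headers, per-spot marks scored 0 or 1 give signal well above background and outliers. The authors deposited a table of processed log2 values whose columns follow the quantile-normalized scanner values (used as an alternative; the tool behind it was not given in the sources used here).

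Spots marked as outliers were dropped, replicate spots averaged, and log2 intensity minus the array's 75th percentile was tested with limma 3.58.1 (R 4.3.3 and the package data.table, version 1.17.8) on all 14 arrays, with genotype and set, two-sided, Benjamini-Hochberg adjustment and a threshold of 0.05. Probes well above background on at least 4 of 7 arrays of either genotype were kept (29687). Differences within sets and their dependence on the set used a 4-mean model (genotype by set). Dimmer probes and detection counts were compared by an exact permutation test that exchanged genotypes within sets (1400 arrangements). The scripts were tested on simulated data. Figures used matplotlib 3.10.9 in Python 3.11.15. Of the 13 probes, 11 have an accession matched in the RefSeq gene list of GRCm38.p6, which was used for names and neighbours alone. Named genes are the 10 members, Bmi1, up to 4 genes of each pathway list by smallest unadjusted p, and some cell type markers. For each member above background on at least 10 arrays, the 2 genes with the highest Pearson's r are named too. A few of these are left out of the text. The members, lists and tests were chosen with earlier results of these data known. Alternatives were 3 other scalings or background corrections (arrays' detected probes, quantile, normexp with offset 50), the deposited values, other filters on dim probes, no set covariate, slide as a block, the replicate number as a block, 1 probe per gene, leaving out each array, and, added with the values known, leaving out the 4 dim KO arrays or keeping slide 2 alone.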

Additional observations from a re-analysis of the deposited data

Results flagged for a closer look

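For each of the 13 probes the 7 arrays of each genotype were searched for 1 array far from the others by Dixon's ratio, which gave 26 groups, and chance alone flags about 1 in 20 such groups. One stood out. Cd180 in WT set 1 replicate 4 had a level of 1.74, while the nearest other WT array had 3.21, and this gap was 0.65 of the whole WT range. The array was not dim, with 63.3% of all probes well above background.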

How the results depend on the processing

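None of the 9 tested probes and none of the pathway list genes passed the threshold in any of the 12 other settings or without any 1 array, and 0 probes depended on the set in the 7 settings and 14 left-out arrays tried for it. Over the whole array, probes with the lower level in KO numbered 8 as reported, 133 with scaling to detected probes (those above background on all 14 arrays), 25 with quantile normalization and 25 with the deposited values. They numbered 20 under the stricter filter, 13 with slide as a random block, 4 with 1 probe per gene and 5 without the dim KO arrays. Probes with the higher level in KO, 1 as reported, numbered 0 with slide as a fixed block and 0 without the dim KO arrays. Leaving out each array gave 0 to 16 higher and 5 to 49 lower, with the largest counts without KO set 1 replicate 3, and 2 higher and 35 lower without KO set 2 replicate 4. Scaling to detected probes moved the medians to -1.02 for all probes and -1.11 for the tested member probes. Signs turned as follows. Tlr1 was -0.59 with scaling to detected probes, -0.52 with quantile normalization and -0.50 with the deposited values. Tlr6 was -1.27, -0.90 and -0.88 under those 3, and -0.41 with slide as a random block. Tlr7 probe 3 was -1.11, -0.27 and -0.23, and -0.15 with slide as a fixed block. Tlr7 probe 1 was -0.31 with scaling to detected probes. Tlr2 was -1.21 there, -0.0079 with quantile normalization and -0.58 within slide 2, where Tlr9 was 0.048. Unc93b1 in set 2 was -0.029 with scaling to detected probes, -0.053 with quantile normalization and -0.040 with the deposited values. Tlr4 probe 1 was -1.34 with scaling to detected probes (exact permutation p = 0.0429) and -0.92 with quantile normalization. Without the dim KO arrays Tlr2 was -0.66, Tlr7 probe 1 -2.99, Tlr7 probe 3 -1.77, Unc93b1 -0.048, Tlr4 probe 1 -0.21, Tlr7 probe 2 0.37, and the count of probes above background per array differed by 0.50. Leaving out each array in turn gave ranges of -0.29 to 0.60 for Tlr2, -0.69 to 0.51 for Tlr6, -0.13 to 1.89 for Tlr7 probe 1, -0.45 to 0.77 for Tlr7 probe 3, -0.57 to 0.029 for Tlr9, -0.20 to 0.17 for Tlr4 probe 1, -1.75 to 0.31 for Cd180 in set 2 and -2.16 to -1.09 for the count of probes above background (exact permutation p from 0.0186 to 0.386). The cause of these turns was not tested. With the replicate number as a block, 1 probe was higher and 7 lower, and Myd88 had a limma adjusted p of 0.422. Deviations of same-numbered arrays correlated from -0.22 to 0.19. The labels do not say whether same-numbered samples were paired, and these values cannot tell, since low correlations do not exclude pairing. Signal over background limits Tlr3, Tlr4 and Tlr7 probe 2, which most arrays did not measure.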
